A study of Saccharomyces cerevisiae with 32 samples.

Results

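Of the yeast mRNAs measured here, 100 stood out in *wt* cells by carrying the most ribosome footprints relative to their abundance. They were chosen with the *wt* libraries alone. Genes with identifiers starting with Y, at a mean of at least 50 counts per 1000000 (CPM) in the 4 *wt* RNA-Seq libraries, were ranked by the log2 ratio of mean Ribo-Seq CPM to mean RNA-Seq CPM, with 0.5 CPM added to each. Genes encoding cytosolic ribosomal proteins, 138 at this level, were left out by symbol. The rule ranked 3098 genes of 7036 in the count table, and the 100 with the highest ratio are described here. Each of the 100 passed the expression filter of the tests, which kept 4625 genes, and each matched a RefSeq gene.

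The study compared wild-type *Saccharomyces cerevisiae* BY4742 (*MATα his3Δ1 leu2Δ0 lys2Δ0 ura3Δ0*) with deletion strains of that background that lack *TMA46* (*tma46Δ*), *YGR054W*, the eIF2A gene (*eif2aΔ*), or *STM1* (*stm1Δ*). By the methods, the deletion strains came from the Yeast Gene Deletion Collection. Each of 16 exponentially growing cultures, 4 per strain, gave a Ribo-Seq library and an RNA-Seq library of oligo(dT)-selected mRNA. The study's methods give YPD as the medium, whereas the labels name YPD or SD without assigning either to a culture, and name cycloheximide before harvest. The 7 labelled batches held *wt* replicates 1 to 4 in batches 1, 2, 3 and 4, *tma46Δ* in 1, 2, 3 and 5, *eif2aΔ* in 3, 4, 5 and 6, and *stm1Δ* in 6, 7, 7 and 7. Thus *stm1Δ* shared no batch with *wt*, and its fitted contrast rests on replicate 1. Depth was 4215500 to 6717295 counts on genes per RNA-Seq library and 1457024 to 4122370 per Ribo-Seq library. The deleted genes are not among the 100 and served to check the labels, with 0 to 23 counts in the libraries of their own deletion strains.

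Ribosome profiling sequences the mRNA fragments that ribosomes protect from nuclease. The share of footprints on an mRNA, divided by its share of the mRNA reads, is its ribosome occupancy (RO). A high RO can come from frequent initiation or from ribosomes that stay long on the coding sequence, and the ratio does not separate these. In yeast, abundant enzymes and chaperones are read through codons that match plentiful tRNAs, and an A 3 bases before the start codon is common in well-translated mRNAs. The ratio compares shares of libraries, so it says how an mRNA stands to the other mRNAs of the same cell and not how many ribosomes it holds.

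The initiation regions of the mRNAs that head the list, or that differed most in the deletion strains, are shown first, because the base 3 before the AUG is the feature of initiation that can be read directly from the sequence. Each window is 12 bases before the start codon to 15 from its first base, read from RefSeq assembly R64, 5′ to 3′ on the coding strand, with that base and the start codon in capitals.
SRO9 (chrIII:58664-58690, minus strand): tctctgcccAcgATGtctgctgaaacc
DED1 (chrXV:722899-722925, plus strand): gcatttcatAttATGgctgaactgagc
DHH1 (chrIV:171916-171942, minus strand): aaaatagtaGtaATGggttccatcaat
CHC1 (chrVII:107490-107516, minus strand): aagttctaaCcaATGagtgacctaccc
USO1 (chrIV:345653-345679, plus strand): ctcctatcaAgaATGgacatcattcaa
URA2 (chrX:172353-172379, minus strand): aacaatcatAatATGgccactattgct
HSP104 (chrXII:88611-88637, plus strand): tatacagaaTatATGaacgaccaaacg
ACC1 (chrXIV:661360-661386, minus strand): caagtttctAccATGagcgaagaaagc
An A stood at that base in 76 of the 100 mRNAs, G in 15, C in 6 and T in 3. Of the other 2992 ranked genes with an annotated coding sequence, 64.6% had A at that place. The 12 mRNAs with the highest ratio had A in 7, G in 3 and C in 2, so the head of the list was not richer in A than the rest.

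The highest RO in *wt* belonged to mRNAs of RNA-binding proteins. *SRO9* (YCL037C), whose product binds mRNA and belongs to the La-motif family, had 565 CPM of footprints for 66.9 CPM of mRNA, an 8.39-fold ratio and 3.07 on the log2 scale. *DED1* (YOR204W), a DEAD-box helicase of translation initiation, had 1177 CPM for 150 CPM and a log2 ratio of 2.97. *DHH1* (YDL160C), a DEAD-box protein of mRNA decapping and translational repression, had 483 CPM for 83.9 CPM and a log2 ratio of 2.52. In single *wt* cultures, replicates 1 to 4, the log2 ratio was 3.06, 3.14, 2.84 and 3.26 for *SRO9*, 2.94, 2.83, 2.81 and 3.34 for *DED1*, and 2.47, 2.38, 2.33 and 2.99 for *DHH1*. *SRO9* and *DED1* overlapped, whereas *DHH1* lay below *SRO9* in each of the 4 cultures. *CHC1*, the clathrin heavy chain, followed at 2.30, and *DEF1*, a factor in the ubiquitylation of RNA polymerase II, at 1.93. *NPL3*, a shuttling mRNA-binding protein, reached 1.70, *AGA1*, the anchor subunit of a-agglutinin, 1.61, *UBA1*, the ubiquitin-activating enzyme, 1.58, and *PFK2*, a subunit of phosphofructokinase, 1.52. *MET6*, methionine synthase, *USO1*, a tether of ER-to-Golgi vesicles, and *ABP1*, an actin-binding protein, stood at 1.47, 1.46 and 1.46.

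**Figure D1:**
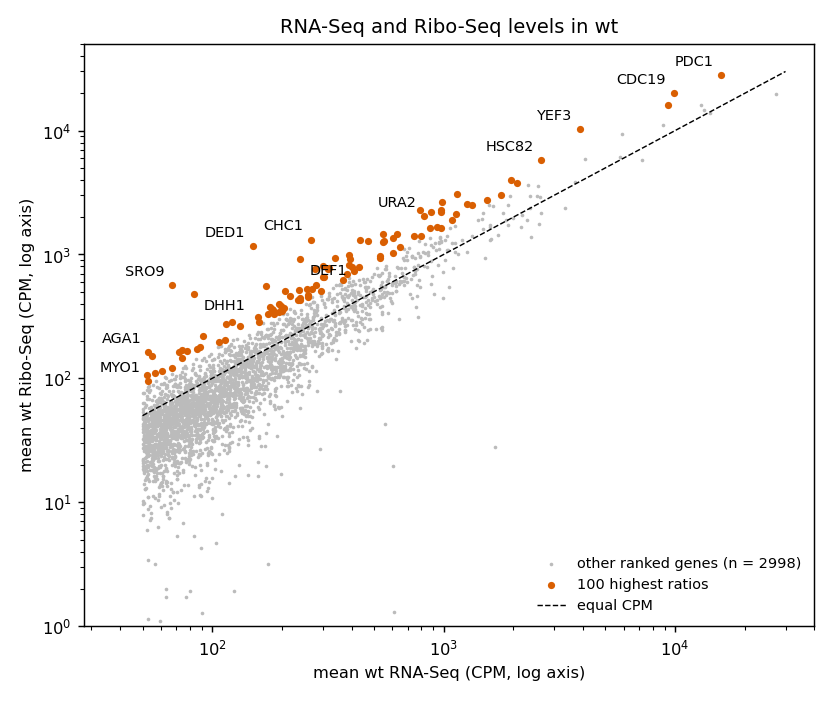
Mean RNA-Seq (x) and Ribo-Seq (y) levels in CPM over the 4 *wt* cultures, both on log axes, for the 100 mRNAs of highest ratio (orange) and the other ranked genes (grey, 0.5 CPM added on y). The dashed line marks equal CPM, and *SRO9*, *DED1* and *DHH1* lie farthest above the grey band.

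These values describe the choice and are not a test of it. The median log2 ratio was 1.01 over the 100 and -0.47 over all 3098 ranked genes, of which 23.2% lay above 0. The end of the list was not a step. *BMH2*, *COF1* and *GUS1* were the last inside at 0.76, 0.76 and 0.75, and *SLA1*, *EAP1* and *TOP2* the first outside at 0.75, 0.75 and 0.74. The order of neighbours near that end was within the spread of single cultures, since *GUS1* ranged from 0.63 to 0.88 and *SLA1* from 0.47 to 1.00 over the *wt* cultures. The 100 mRNAs made up 15.6% to 17.3% of a Ribo-Seq library but 7.59% to 8.80% of an RNA-Seq library.

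The products fall into a few kinds of work, grouped here after the members were known. Those that bind mRNA or decide its fate number 9 and had the highest median log2 ratio of the groups, 1.27. Beside *SRO9*, *DHH1* and *NPL3* they are *SCP160* (1.42), a KH-domain protein of polysomes, *PUB1* (1.27), a poly(U)-binding protein, *PAB1* (1.23), the poly(A)-binding protein, *PSP2* (1.196), *BFR1* (1.07) and *CAF20* (0.94), a repressor that binds the cap-binding protein. Translation factors number 6, with a median of 1.197. *DED1* led them, and *YEF3* (1.40), the fungal elongation factor 3, *NIP1* (1.28), an eIF3 subunit, *CLU1* (1.11), *TIF4632* (1.02), 1 of the eIF4G genes, and *SUP35* (0.86), the release factor eRF3, followed. The 5 aminoacyl-tRNA synthetases, which charge tRNAs with leucine (*CDC60*), alanine (*ALA1*), glutamine (*GLN4*), serine (*SES1*) and glutamate (*GUS1*), lay from 0.75 to 1.21.

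Chaperones and their partners number 10, from 0.79 (*SIS1*, an Hsp40) to 1.43 (*HSP82*, an Hsp90). *SSE1*, an Hsp110 that exchanges the nucleotide of Hsp70, was at 1.42, *SSC1*, the Hsp70 of mitochondrial import, at 1.31, *CDC37*, which brings kinases to Hsp90, at 1.25, and *HSP104*, the disaggregase, at 1.22. Carbon metabolism gave 13 mRNAs with a median of 0.92. Of glycolysis and fermentation these were *PFK2*, *PFK1* (1.19), *HXK1* (1.09), *CDC19* (1.02), *PGI1* (0.86), *PDC1* (0.83) and *PGK1* (0.80). In amino acid, methyl cycle and nucleotide metabolism, 11 mRNAs had a median of 0.97, among them *MET6*, *URA2* (1.31), the first enzyme of pyrimidine synthesis, *SAH1* (1.22), *TRP5* (0.97) and *RNR2* (0.98), a subunit of ribonucleotide reductase. Lipid work was represented by 5, namely *SEC14* (1.03), a phosphatidylinositol transfer protein, *FAS1* (1.00), a fatty acid synthase subunit, *FAA1*, *ERG13* and *ACC1* (0.80), the acetyl-CoA carboxylase.

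Vesicle coats, endocytosis and the actin cortex gave 12 mRNAs. Beside *CHC1*, *USO1* and *ABP1* they include *SAC6* (1.11), *EDE1* (1.03), *SEC31* (1.01), *SEC16* (0.97), *MYO1* (0.84), the myosin II of the bud neck, and *COF1*, cofilin. The remaining groups were ubiquitin and proteolysis (7 mRNAs), membrane transport (7), nuclear import, transcription and rRNA processing (4), the cell wall and surface (4), and 7 without a shared role.

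**Figure D2:**
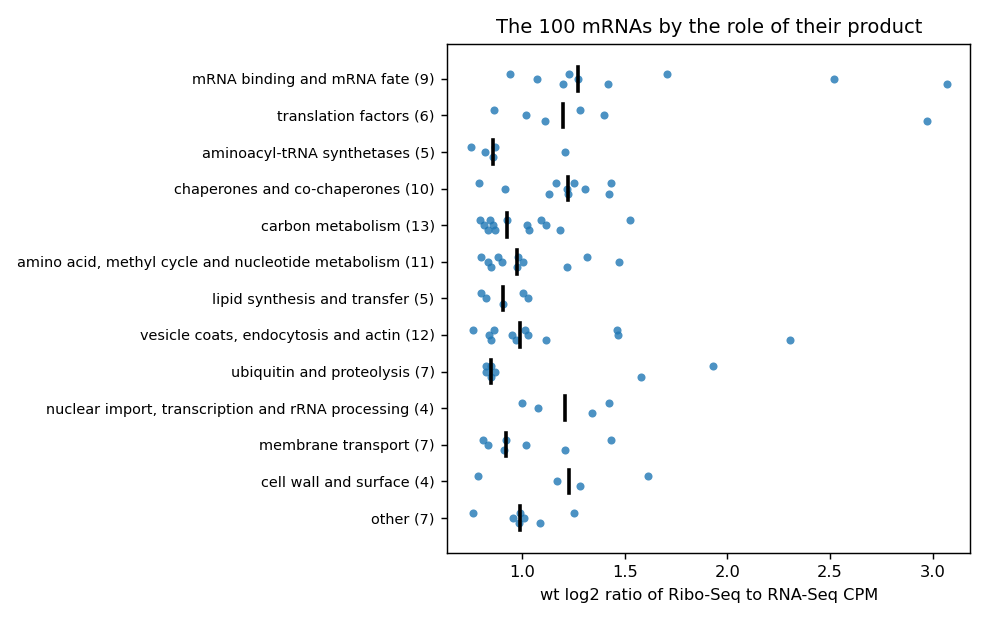
Log2 ratio of mean Ribo-Seq to mean RNA-Seq CPM in *wt* (x) for each of the 100 mRNAs (points), by the role of the product (y, number of mRNAs in brackets), with the median of each group as a black line. The mRNA-binding group has the highest median, 1.27, and *SRO9*, *DED1*, *DHH1* and *CHC1* stand to the right of all others.

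Against wider lists of genes by function, 7 of 19 ranked genes of glycolysis and fermentation, 9 of 35 cytosolic chaperones and 5 of 21 cytosolic aminoacyl-tRNA synthetases were among the 100, where the rule took 3.23% of all ranked genes. The list of initiation factors gave 4 of 27 (*DED1*, *NIP1*, *PAB1* and *TIF4632*) and that of the actin cytoskeleton 4 of 24. Amino acid synthesis gave 6 of 67, sterol and fatty acid synthesis 3 of 36, and mitochondrial import 3 of 34 (*SSC1*, *TOM7* and *POR1*). Lists giving 2 were elongation and termination factors (of 12), protein turnover (15), vacuolar ATPase (17), redox defence (26) and nucleotide synthesis (35). Those of the cell wall (37), vesicle coats and Golgi traffic (51) and ribosome biogenesis (78) also gave 2. Membrane transporters gave 1 of 40, and mRNAs with reported upstream reading frames or alternative starts 1 of 10. None came from the 33 proteasome subunits, 34 mitochondrial ribosomal proteins, 42 genes of ER translocation and folding, 15 histone and chromatin genes, 15 citric acid cycle enzymes, 12 subunits of the mitochondrial ATP synthase or 10 of the respiratory chain. These counts describe the list and were not tested.

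Several sequence features that the rule did not use differed from those of the other ranked genes. The median coding length was 602.5 codons against 479, and 21 of the 100 had at least 1000 codons (21.0%, against 12.2%). The share of optimal codons, meaning for each amino acid the codon used most in the 138 ribosomal protein genes, had a median of 52.5% against 39.9%. It ran from 34.5% in *PSP2* to 79.7% in *PDC1*. *DHH1* (44.0%), *UBA1* (44.1%) and *AGA1* (37.1%), high in the list, lay between the quartiles of the other genes, 37.0% and 44.4%. The RNA-Seq level in *wt*, which the rule used as its minimum and in the ratio, is given as a description only. Per kb of coding sequence it had a median of 167 CPM against 78.0 CPM, and 26 of the 100 were in the highest 10% of ranked genes. *PDC1*, *PGK1* and *CDC19* were the most abundant on this scale at 9347, 7471 and 6565 CPM per kb, and *MYO1* and *USO1* the least abundant at 9.10 and 10.2 CPM per kb. An interrupted coding sequence was found in 5 of the 100.

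Stretches of glutamine and asparagine codons, the composition of yeast prion domains, were found in 12 of the 100 as at least 24 such codons within a window of 80, against 5.31% of the other genes. The highest numbers were 53 in *DEF1*, 43 in *RNQ1*, a prion protein, 41 in *CPP1* and 38 in *SUP35*, whose product forms the [PSI+] prion, followed by *PUB1* and *PSP2* with 33 each. *SRO9* had 29 and *DHH1* 25. The densest runs of 20 codons in *DEF1* and *RNQ1*, each with 16 glutamine or asparagine codons, show the feature in the bases, with those codons in capitals.
DEF1 (chrXI:337479-337538, minus strand, codons 406 to 425): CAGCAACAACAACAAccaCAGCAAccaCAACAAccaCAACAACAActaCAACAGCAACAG
RNQ1 (chrIII:70999-71058, plus strand, codons 284 to 303): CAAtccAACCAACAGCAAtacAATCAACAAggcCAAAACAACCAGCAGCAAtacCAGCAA
The *DEF1* run is mostly glutamine codons, and that of *RNQ1* mixes both kinds. Reads from such repeats may map to more than one place, and multiply mapped reads are absent from the counts.

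The members depended little on which *wt* cultures were used. Leaving out *wt* replicate 1, 2, 3 or 4 kept 95, 94, 97 and 93 of the 100, and ranking on replicates 1 and 2 or on 3 and 4 kept 93 and 90. A minimum of 20 CPM kept 89 and one of 100 CPM 84, the latter without *SRO9*, *DHH1*, *AGA1* and *USO1*, whose RNA-Seq level is below it. Counting without regard to strand kept 94 and lost *AGA1*, *HPF1*, *CAF20*, *GND1*, *SSA1* and *CAR2*. Reads on the opposite strand or overlapping gene annotations bear on some members. *HPF1* had 49.5% of its RNA-Seq reads on the opposite strand in *wt*, and unstranded counting, which drops reads shared by overlapping genes, kept only 0.085 of the sense count of *CAF20*, 0.18 of *CDC19* and 0.36 of *PGK1*. *HSC82* and *HSP82*, *SSA1*, *SAM2*, *BMH2* and *PMP2* have near-identical paralogs, so their counts are uncertain.

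The deletion strains, whose libraries did not enter the rule, ranked largely these mRNAs first as well. By the same rule within each strain, 87 of the 100 were among the 100 highest in *tma46Δ*, 86 in *eif2aΔ* and 85 in *stm1Δ*, and 99, 98 and 98 among the 200 highest. *SRO9*, *DED1* and *DHH1* filled the first 3 places in each, with *DED1* first in *tma46Δ* and *eif2aΔ* and *SRO9* in *stm1Δ*. The lowest of those ranked were *ERG13* at place 140 in *tma46Δ* and *MYO1* at 300 in *eif2aΔ* and 561 in *stm1Δ*. In *tma46Δ*, *MYO1* was under the minimum of 50 CPM and had no place. From the mean levels of each strain, each of the 100 stayed above a log2 ratio of 0. The median over the 100 was 0.97 to 1.09 in the single *wt* cultures, 0.99 to 1.09 in *tma46Δ*, 0.93 to 1.16 in *eif2aΔ* and 1.02 to 1.06 in *stm1Δ*, so the strains overlapped.

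*SRO9* was at 3.08, 3.00, 2.78 and 2.99 in *tma46Δ*, at 2.57, 2.91, 3.14 and 2.86 in *eif2aΔ* and at 2.88, 3.02, 2.85 and 2.94 in *stm1Δ*. *DED1* was at 3.16, 2.84, 2.91 and 3.06, at 2.97, 3.11, 3.47 and 3.23, and at 2.74, 2.80, 2.93 and 2.75 in the same strains. Each deletion strain overlapped *wt* for both genes, and *DED1* was lower in each *stm1Δ* culture than in any *eif2aΔ* culture. The fitted difference of *DED1* between these 2 strains was -0.44 ± 0.35 (SE, log2, FDR 0.998 by edgeR). *DHH1* had means of 2.59 ± 0.20 in *tma46Δ*, 2.49 ± 0.35 in *eif2aΔ* and 2.23 ± 0.11 in *stm1Δ* (SD, n = 4), and each strain overlapped *wt*. Of the next mRNAs in the list, *AGA1*, *DEF1* and *USO1* were chosen here after their values were seen. The mean over cultures of *AGA1* was 1.59 in *wt*, 1.94 in *eif2aΔ* and 1.32 in *stm1Δ*, that of *DEF1* 1.93, 2.04 and 1.65, and that of *USO1* 1.62, 0.88 and 1.13. In *tma46Δ* the means of *AGA1*, *DEF1* and *USO1* were 1.75, 1.99 and 1.77. Each deletion strain overlapped *wt* for each of these genes.

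**Figure D3:**
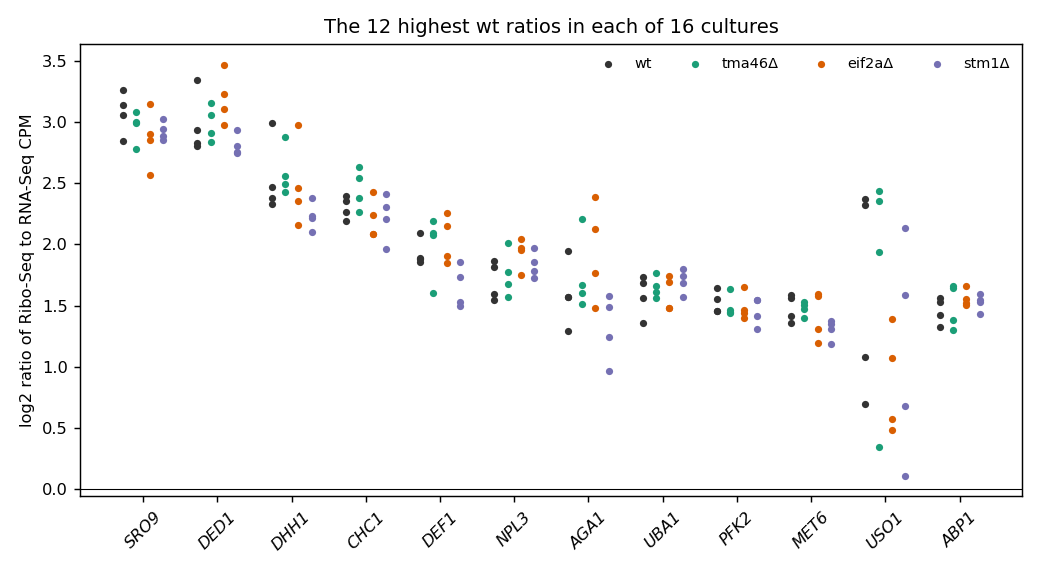
Log2 ratio of Ribo-Seq to RNA-Seq CPM (y) in each of the 16 cultures (points, coloured by strain) for the 12 mRNAs with the highest *wt* ratio (x). Each deletion strain overlaps *wt* for *SRO9* and *DED1*, the *stm1Δ* points of *DED1* lie below those of *eif2aΔ*, and *USO1* runs from 0.11 to 2.44.

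Against *wt*, differences in RO were fitted as the interaction of strain and assay with edgeR's quasi-likelihood test, adjusted over the 4625 genes. No mRNA of the 100 passed an FDR of 0.05 in *tma46Δ* (0 called, background 0% of all genes tested), in *eif2aΔ* (0 called, background 0.0432%) or in *stm1Δ* (0 called, background 0%). At an unadjusted p under 0.05 there were 0, 3 and 7 of the 100, where 1.3%, 3.31% and 5.51% of all genes tested were past that level. The 3 were *USO1*, *URA2* and *ACC1*, each lower, and the 7 were *USO1*, *MYO1*, *YGR130C*, *PSP2*, *SEC16* and *ACC1*, lower, and *PMP3*, higher. DESeq2 called 0 in each strain, and 0, 3 and 0 of all genes tested. ComBat-seq adjusted counts, which the authors used before the test, gave 0, 5 and 48 calls. Among all 4625 genes tested, the adjusted counts gave 1, 62 and 2137 calls. Since the 100 were picked for high *wt* ratios, chance excess in *wt* pulls their differences down, and these contrasts are a description of the members.

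The median fitted difference of the 100 was -0.02 in *tma46Δ*, -0.03 in *eif2aΔ* and -0.03 in *stm1Δ* on the log2 scale, beside medians of all tested genes of 0.00, 0.01 and 0.01. Of the 100, 40, 36 and 44 were higher, against 49.9%, 54.0% and 51.9% of all genes tested. In *tma46Δ* the extremes were *HXK1* (-0.19 ± 0.21, SE), *TOH1* and *RNR2* (both -0.17 ± 0.10) and *MYO1* (0.26 ± 0.39), *CDC37* (0.21 ± 0.13) and *HSP82* (0.13 ± 0.14), and each of these differences was within 2 SE of 0. In *eif2aΔ* the largest falls in value were *USO1* (-1.13 ± 0.38, unadjusted p = 0.0075 and FDR 0.999 by edgeR), *MYO1* (-0.86 ± 0.43) and *ACC1* (-0.32 ± 0.14), and the largest rises *SEC14* (0.21 ± 0.13), *LSB1* (0.20 ± 0.15) and *NPL3* (0.19 ± 0.16). In *stm1Δ* they were *USO1* (-2.37 ± 0.72, unadjusted p = 0.0035 and FDR 0.787), *MYO1* (-2.33 ± 0.82) and *YGR130C* (-0.97 ± 0.42), against *PMP3* (0.62 ± 0.27), *COF1* (0.47 ± 0.25) and *ALD4* (0.44 ± 0.33).

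Cultures of 1 batch give the same comparison without a fit. Median differences of the 100 from the *wt* culture of the batch were 0.050, 0.042 and 0.037 in *tma46Δ* (batches 1, 2 and 3), with all ranked genes at 0.009, 0.034 and 0.086. There, 63, 64 and 63 of the 100 were higher, against 52.2%, 58.7% and 66.6% of all ranked genes. In *eif2aΔ* the medians were -0.073 (batch 3) and -0.088 (batch 4), with all ranked genes at 0.059 and -0.029. Of the 100, 36 and 27 were higher there, against 61.4% and 45.6% of all ranked genes. When the 100 were picked anew from *wt* cultures of other batches, so that the culture compared played no part in the choice, the medians were 0.060, 0.058, 0.048, -0.074 and -0.079. No such value exists for *stm1Δ*.

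Comparisons between deletion strains used no library of the rule. In a fit without *wt*, 0 of the 100 passed an FDR of 0.05 for *eif2aΔ* against *tma46Δ* (background 0%) and 0 for *stm1Δ* against *eif2aΔ* (background 0%), with 3 and 3 at an unadjusted p under 0.05, where all genes tested gave 3.14% and 3.33%. The medians of the 100 were -0.01 and 0.00. *MYO1* (-1.50 ± 0.54) and *USO1* (-1.45 ± 0.44) had the lowest values for *eif2aΔ* against *tma46Δ*, and *KAP95* (0.35 ± 0.22), importin beta, and *HSP150* (0.25 ± 0.21), a cell wall protein, the highest. For *stm1Δ* against *eif2aΔ*, *MYO1* (-1.47 ± 0.74) and *USO1* (-1.24 ± 0.61) were again lowest, and *ALD4* (0.59 ± 0.34) and *PMP3* (0.56 ± 0.29) highest.

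Some members separated the strains culture by culture, although no fitted difference passed the FDR. Between *stm1Δ* and *eif2aΔ* this was no more frequent than over all genes tested, with 5 of the 100 wholly lower against 5.1%. For *eif2aΔ* below *tma46Δ* it was 6 of the 100 against 1.77%. The edgeR fit of that contrast, with its batch term, gave 3 of the 100 at an unadjusted p under 0.05, against 3.14%. Members also varied less between cultures of 1 strain (median SD 0.14, against 0.18 over all ranked genes). What this adds to the count was not tested. The 2 members given here were chosen after their values were seen. *ACC1* was at 0.78, 0.82, 0.74 and 0.85 in *wt* and at 0.83, 0.88, 0.82 and 0.89 in *tma46Δ*. It was at 0.50, 0.49, 0.58 and 0.65 in *eif2aΔ* and at 0.29, 0.42, 0.42 and 0.46 in *stm1Δ*. Thus *wt* and *tma46Δ* overlapped, each *eif2aΔ* culture lay below them, and each *stm1Δ* culture below those. *FAS1*, whose product works on that of *ACC1*, was at 1.06, 1.03, 0.84 and 1.06 in *wt*, 1.07, 1.17, 0.99 and 0.98 in *tma46Δ*, 0.60, 0.64, 0.85 and 0.75 in *eif2aΔ* and 0.53, 0.41, 0.61 and 0.68 in *stm1Δ*. Here *eif2aΔ* lay below *tma46Δ* throughout and overlapped the lowest *wt* culture. Within batches 3 and 4, *eif2aΔ* minus *wt* was -0.23 and -0.36 for *ACC1* and -0.25 and -0.43 for *FAS1*. The *wt* ratios chose both members, so the comparisons with *wt* are a description only.

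Over the whole list, *eif2aΔ* lay wholly below *tma46Δ* for 6 of the 100 (*URA2*, *HSP104*, *PFK1*, *FAS1*, *VMA2* and *ACC1*, background 1.77%) and wholly above for 1 (*SEC14*, background 1.71%). *stm1Δ* lay wholly below *eif2aΔ* for 5 (*DED1*, *PTR2*, *KAP95*, *CPP1* and *ACC1*, background 5.1%) and above for 3 (*SCP160*, *CPS1* and *VMA2*, background 2.9%). Against *wt*, which chose the members, the numbers below were 1 in *tma46Δ* (*ERG13*, background 0.562%), 5 in *eif2aΔ* (*URA2*, *PFK1*, *TOH1*, *CPS1* and *ACC1*, background 1.58%) and 4 in *stm1Δ* (*PTR2*, *FAS1*, *KAP95* and *ACC1*, background 4.26%), and nothing is read from these. Those above were 0 (background 0.908%), 1 (*LSB1*, background 2.03%) and 1 (*SSE1*, background 2.72%). The background leaves batch out, as does the count.

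The parts of the ratio were also fitted singly. In RNA-Seq, 0 of the 100 passed an FDR of 0.05 in *tma46Δ* (background 0.0216%), *eif2aΔ* (background 0.454%) and *stm1Δ* (background 0.0649%) by edgeR, with 2, 13 and 29 at an unadjusted p under 0.05 (background 1.62%, 13.7% and 21.8%). DESeq2 called 0, 2 and 7, and among all genes tested 1, 51 and 215. In Ribo-Seq, 0 passed in *tma46Δ* (background 0.0216%), where 3 had an unadjusted p under 0.05 (background 3.68%) and DESeq2 called 1 (2 of all genes tested). In *eif2aΔ* 3 passed (background 1.84%), each lower (background 1.06%), and in *stm1Δ* 1 passed (background 0.411%), higher (background 0.259%). Here too the *wt* libraries took part in the choice.

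These counts rest on the batch term and on single cultures. In this paragraph, brackets give the calls among all 4625 genes tested. Without a batch term *stm1Δ* had 18 members called by RNA-Seq (447) and 12 by Ribo-Seq (220). Without *stm1Δ* replicate 2, RNA-Seq gave 6 calls in *eif2aΔ* (172) and 18 in *stm1Δ* (577), and Ribo-Seq 6 (243) and 8 (189). RNA-Seq of *eif2aΔ* gave 2 without *tma46Δ* replicate 4 (17), *eif2aΔ* replicate 3 (22) or *stm1Δ* replicate 4 (48). Ribo-Seq of *tma46Δ* gave 1 without *tma46Δ* replicate 4 (2) or *eif2aΔ* replicate 3 (2). That of *eif2aΔ* gave 1 without *wt* replicate 4 (7) or *eif2aΔ* replicate 2 (7). Ribo-Seq of *stm1Δ* gave 6 without *eif2aΔ* replicate 1 (115) and 3 without *tma46Δ* replicate 4 (15) or *eif2aΔ* replicate 3 (16). It gave 0 without any 1 of the 4 *wt* replicates, *tma46Δ* replicate 1, 2 or 3, *eif2aΔ* replicate 2 or *stm1Δ* replicate 3 (1 to 7).

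*URA2*, which makes carbamoyl phosphate and carbamoyl aspartate for pyrimidines, fell in the Ribo-Seq of *eif2aΔ*. It was at 2146, 2081, 1974 and 2001 CPM in *wt*, 2134, 2116, 1935 and 2112 CPM in *tma46Δ*, 1356, 1435, 1443 and 1465 CPM in *eif2aΔ* and 1781, 1681, 1892 and 1922 CPM in *stm1Δ*. Each *eif2aΔ* library was below the other 12. The fitted log2 fold change was -0.58 ± 0.07 (SE, FDR 0.00102 by edgeR), it remained past the threshold in each of 24 alternatives, and its lowest and highest values there were -0.61 and -0.55. In RNA-Seq *URA2* was at 707, 718, 651 and 708 CPM in *eif2aΔ* and at 785 to 885 CPM in *wt*, a log2 fold change of -0.31 ± 0.08 (FDR 0.116). The difference in RO was -0.27 ± 0.11 (FDR 0.999).

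*ALD4*, the mitochondrial aldehyde dehydrogenase, was at 354, 441, 445 and 480 CPM in the Ribo-Seq of *wt* and at 248, 268, 322 and 172 CPM in *eif2aΔ*, without overlap. Its fitted log2 fold change was -0.73 ± 0.12 (FDR 0.00589 by edgeR), and its RNA-Seq change of -0.58 ± 0.12 (FDR 0.0518) was of similar size. The call was lost without *wt* replicate 4 or without *eif2aΔ* replicate 2, where the FDR reached 0.150. *MET6* had a fitted Ribo-Seq change of -0.43 ± 0.10 in *eif2aΔ* (FDR 0.038 by edgeR), with 680, 744, 822 and 832 CPM in *wt* and 752, 606, 517 and 826 CPM in *eif2aΔ*. These overlapped, and the call was lost in 12 of 24 alternatives, among them no batch term (-0.21), the replicate block (-0.22) and leaving out any *tma46Δ* replicate.

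*HSP104*, the only member called in *stm1Δ*, had 742, 1022, 951 and 967 CPM in the Ribo-Seq of *wt* and 1242, 1028, 887 and 1032 CPM in *stm1Δ*. The fitted log2 fold change was 1.01 ± 0.20 (FDR 0.0444 by edgeR), although the levels overlapped. It rests on batch 6, where *stm1Δ* replicate 1 had 1242 CPM and *eif2aΔ* replicate 4 had 565 CPM, the lowest of the 16 libraries. Without a batch term the change was 0.12 (FDR 0.720), and it failed the threshold in 12 of the 22 alternatives that could be fitted.

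**Figure D4:**
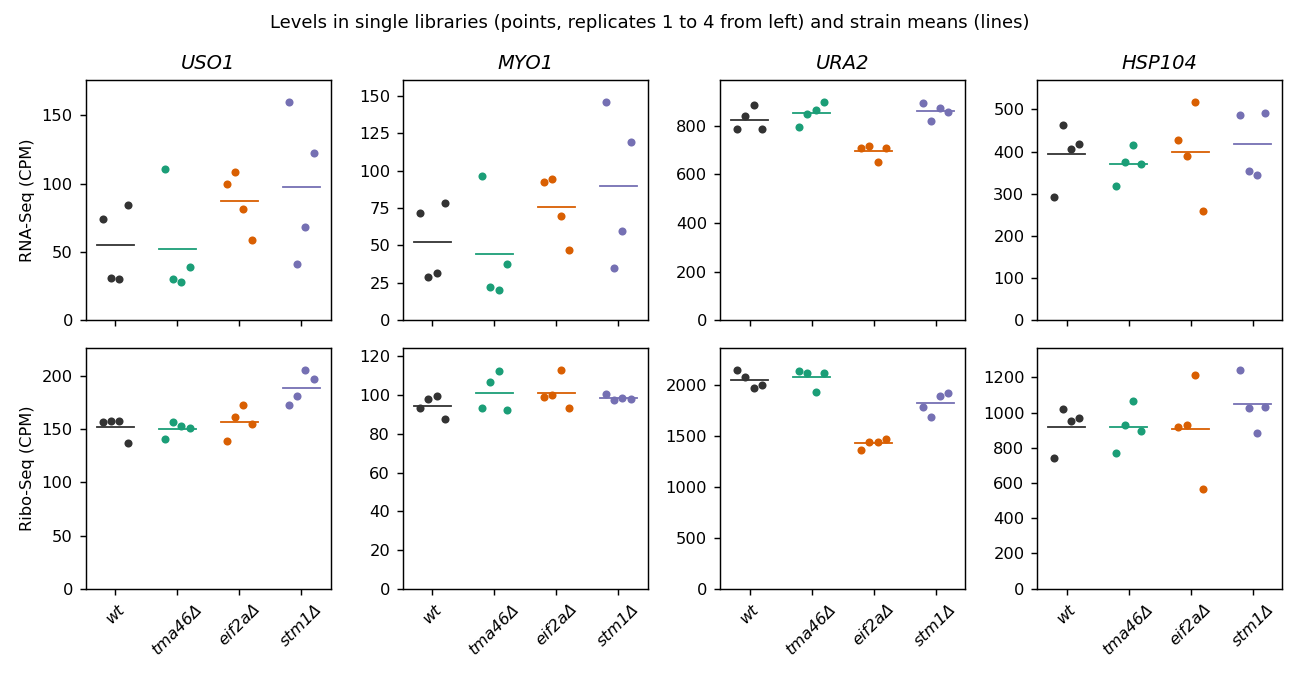
RNA-Seq (top) and Ribo-Seq (bottom) levels in CPM, from 0, of *USO1*, *MYO1*, *URA2* and *HSP104* in each library (points, replicates 1 to 4 from left to right) with the mean of each strain as a line. The 4 *eif2aΔ* libraries of *URA2* in Ribo-Seq, 1356 to 1465 CPM, lie below all others, and *USO1* and *MYO1* spread in RNA-Seq within each strain.

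*USO1* and *MYO1* were the least constant members. The SD of the log2 ratio among cultures of 1 strain, pooled over the strains, was 0.87 for *MYO1* and 0.82 for *USO1*, followed by *YGR130C* (0.35) and *AGA1* (0.32), whereas its median was 0.14 over the 100 and 0.18 over all ranked genes. *USO1* was at 1.08, 2.32, 2.37 and 0.70 in *wt*, 0.35, 2.36, 2.44 and 1.94 in *tma46Δ*, 0.48, 0.57, 1.07 and 1.39 in *eif2aΔ* and 0.11, 2.14, 1.59 and 0.68 in *stm1Δ*. High and low values occurred in *wt*, *tma46Δ* and *stm1Δ* alike. Its RNA-Seq level ran from 27.8 to 160 CPM over the 16 cultures and its Ribo-Seq level only from 137 to 206 CPM, and for *MYO1* the ranges were 20.5 to 146 CPM and 87.4 to 113 CPM. The variation of the ratio therefore lay mostly in the RNA-Seq libraries.

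The pattern of *USO1* over the 16 cultures was closest to that of *MLP1* (Pearson r = 0.98), *MYO1* (0.96), *MLP2* (0.96), *IMH1* (0.95) and *AIP5* (0.93), where RNA-Seq and Ribo-Seq libraries are shared by all genes. Of these only *MYO1* is a member. *USO1*, *MYO1*, *MLP1*, *MLP2* and *IMH1* encode coiled-coil proteins. Adenine made up 39.9% of the coding bases of *USO1* and 39.5% of *MYO1*, and 40.4% to 42.5% of the 4 others, against a median of 30.5% over the 100 and 32.3% over all ranked genes. *YGR130C*, next in spread, had 39.5%, whereas *AGA1*, the one after it, had 27.7%. The mRNA was selected with oligo(dT), and the part of this step or of base composition in the spread was not tested. Without *USO1* and *MYO1* the median RO differences of the 100 changed by less than the SD of that median over the *wt* cultures.

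Longer members tended to lower RO differences in *eif2aΔ* and *stm1Δ*. For this relation the difference from *wt* was taken between ratios of mean levels, without a fit or a batch term. Over the 100, Spearman's rho of coding length with this difference was 0.29 in *tma46Δ*, -0.34 in *eif2aΔ* and -0.40 in *stm1Δ*. Over all 3092 ranked genes with a length it was 0.10, -0.21 and -0.55. These are correlations across genes of the same libraries, which are not independent, and the 3 contrasts share the *wt* libraries. Against the mean of *wt*, single cultures of 1 strain gave different values, from -0.24 to 0.53 in *tma46Δ*, from -0.47 to -0.0035 in *eif2aΔ*, from -0.49 to -0.09 in *stm1Δ* and from -0.31 to 0.37 among the *wt* cultures themselves. The ranges overlapped between strains. By mean levels of the strains, the 21 members of at least 1000 codons had a median difference of 0.03 in *tma46Δ*, -0.09 in *eif2aΔ* and -0.08 in *stm1Δ*, with 8, 17 and 15 lower. All ranked genes of that length had medians of 0.04, -0.06 and -0.23, with 33.2%, 68.1% and 90.1% lower. The 18 members under 400 codons had medians of -0.02, 0.04 and 0.10, and all ranked genes of that length 0.00, 0.03 and 0.05.

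**Figure D5:**
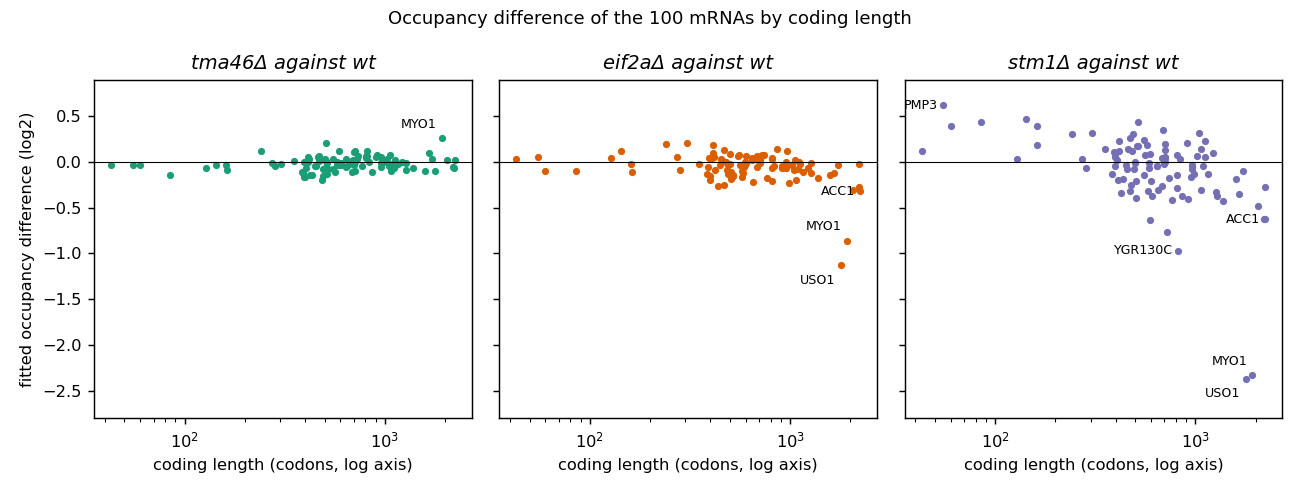
Fitted RO difference from *wt* (y, log2) against coding length in codons (x, log axis) for the 100 mRNAs in each deletion strain. Points stay near 0 in *tma46Δ*, and the longest mRNAs lie lower in *eif2aΔ* and *stm1Δ*, with *USO1* and *MYO1* the lowest in both.

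By role, the median fitted differences are given without a test. Single genes had a median SE of 0.12 in *tma46Δ*, 0.14 in *eif2aΔ* and 0.27 in *stm1Δ*. In *tma46Δ* they ran from -0.07 for carbon metabolism, 11 of 13 lower, to 0.05 for the aminoacyl-tRNA synthetases, 1 of 5 lower. In *eif2aΔ* they ran from -0.13 for the lipid group, 3 of 5 lower, to 0.09 for the cell wall and surface, 1 of 4 lower. In *stm1Δ*, where the fit rests on replicate 1, they ran from -0.32 for the translation factors, 5 of 6 lower, to 0.14 for membrane transport, 2 of 7 lower. Means over cultures of the translation factors, *wt* then *stm1Δ*, were 2.98 and 2.81 (*DED1*), 1.40 and 1.52 (*YEF3*) and 1.28 and 1.25 (*NIP1*). They were 1.11 and 1.10 for *CLU1* and 1.03 and 0.95 for *TIF4632*. *SUP35* ranged from 0.75 to 0.99 in *wt* and from 0.76 to 1.02 in *stm1Δ*. The mRNA-binding group, which led in *wt*, had medians of 0.00, -0.06 and -0.18. No member of any group passed the FDR in these contrasts.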

How the data were processed

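The authors deposited raw read counts per gene for 32 libraries; by their methods and notes, reads were trimmed with cutadapt 2.10, Ribo-Seq duplicates and rRNA reads were removed (bowtie2, given as 1.2.3), and the rest mapped and counted with STAR 2.7.9a on Ensembl R64-1-1. These deposited counts are sense-strand, uniquely mapped and without batch correction. CPM used the sum of each library. The members, gene lists and groups were chosen with earlier results of these data known.

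Tests were run in R 4.3.3 with edgeR 4.0.16 (quasi-likelihood, TMM, terms for batch and strain) on genes reaching 10 CPM in 4 or more libraries of each assay, adjusted by Benjamini-Hochberg over 4625 genes. RO was the strain by assay interaction over the 32 libraries. The RO fit was tested on simulated counts without batch effects, for *tma46Δ* against *wt* only. Alternatives used DESeq2 1.42.0, sva 3.50.0 (ComBat-seq), other scaling, filters, strand, samples, blocks and leaving out each culture. Symbols, coding sequences and coordinates came from RefSeq R64, where 5956 of 7036 identifiers matched. Plots used matplotlib 3.10.9. Replicates are separate cultures by number only, and p-values cover the spread between them. Same-numbered *wt* and *tma46Δ* cultures of batches 1 to 3 deviated together (r from 0.26 to 0.45, 3 pairs). Cultures of 1 batch with different numbers did not (r from -0.16 to 0.06, 5 pairs). With the number shared but not the batch, r was from -0.19 to 0.31 (21 pairs), and with neither from -0.47 to 0.39 (67 pairs).

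Named were the 12 members with the highest *wt* ratio, 3 on each side of the limit, members past the FDR, the 3 largest RO differences in each direction per strain (2 without *wt*) and the 3 highest of each list with 3 or more members. Others were named after their values were seen, and 1 member that the rule names is not reported here.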

Additional observations from a re-analysis of the deposited data

Results flagged for a closer look

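In 7 of 120 groups of 4 cultures examined, 1 culture stood apart from the other 3 by Dixon's 95% limit, where chance gives about 1 in 20. The log2 ratio of *ALD4* was 0.93 in *tma46Δ* replicate 1 against 0.69 to 0.73 in the others, and that of *PFK2* in the same culture was 1.63 against 1.44 to 1.46. The median over the 100 mRNAs was also higher in that culture, 1.09 against 0.99 to 1.01. *DEF1* was at 2.095 in *wt* replicate 4 against 1.86 to 1.89. In *stm1Δ*, *PMP3* was at 0.60 in replicate 4 against 1.04 to 1.08, *RNR2* at 1.16 in replicate 1 against 0.89 to 0.91, and *YGR130C* at 1.85 in replicate 2 against 0.77 to 0.92.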

How the results depend on the processing

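The count of 0 members called for RO held in each strain and in both comparisons between deletion strains under each alternative fitted, other than ComBat-seq with strain as group, which called 5 in *eif2aΔ* and 48 in *stm1Δ*. Among all 4625 genes tested, ComBat-seq called 62 and 2137 there. Without *stm1Δ* replicate 1 or *eif2aΔ* replicate 4 the *stm1Δ* contrast could not be fitted. The median RO difference of the 100 turned positive without a batch term (0.026 in *eif2aΔ*, 0.040 in *stm1Δ*) and with the replicate block in its place (0.026 and 0.043). With *wt* and 1 strain only it was -0.094 and 0.042. Leaving out single cultures moved it from -0.089 to 0.010 in *eif2aΔ* and from -0.052 to 0.020 in *stm1Δ*. In *tma46Δ* it was -0.017 and turned to 0.0019 without a batch term, with the same-batch pairs positive in 3 of 3. The cause was not tested, and its sign is not settled in any of the 3 strains.

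Calls in single assays were fitted under alternatives chosen after seeing the data. Brackets here give the calls among all genes tested, 4625 other than with no filter. In RNA-Seq, ComBat-seq called 13 of the 100 in *eif2aΔ* (959) and 72 in *stm1Δ* (3151). For *stm1Δ*, no batch term called 18 (447) and the replicate block 13 (251). There, *wt* with 1 strain only called 1 (7), 5 (205) and 12 (291) in *tma46Δ*, *eif2aΔ* and *stm1Δ*. No filter called 1 in *eif2aΔ* (57) and 3 in *stm1Δ* (92), and DESeq2 2 (51) and 7 (215). In Ribo-Seq, ComBat-seq called 2 (14), 24 (821) and 67 (2561) in the 3 strains. There, *wt* with 1 strain only called 11 (76), 7 (190) and 10 (162), and DESeq2 1 (2), 5 (58) and 3 (35). In *stm1Δ*, no batch term called 12 (220) and the replicate block 9 (157). Leaving out single cultures gave 0 to 6 in *eif2aΔ* (4 to 172) and 0 to 18 in *stm1Δ* (1 to 577) in RNA-Seq. In Ribo-Seq of *tma46Δ*, *eif2aΔ* and *stm1Δ* it gave 0 to 1 (1 to 2), 1 to 6 (7 to 243) and 0 to 8 (1 to 189). Of the 4 members called in Ribo-Seq, *URA2* was past the FDR in 24 of 24 alternatives, *ALD4* in 22 of 24, *MET6* in 12 of 24 and *HSP104* in 10 of 22, and none changed sign. In *stm1Δ*, strain and batch cannot be told apart except through batch 6.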
